A study of Mus musculus with 12 samples.

Results

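The hippocampus of Ercc1-/- mice (KO) was set against that of Ercc1+/+ wild type littermates (WT). The comparison uses 6 of the 12 arrays of the series, 3 KO and 3 WT, and all 45037 probe sets of the deposited hippocampus table. Every mouse came from crosses of FVB and C57BL/6 and was euthanized at postnatal day 21, and the whole hippocampus was dissected and frozen, so each array measures all cell types of the region at once. RNA was biotin-labelled and hybridised to Affymetrix 430_2.0 arrays, 1 sample per array. The study's design gives 3 mice of each genotype with both regions taken from them. Sex and litter are not given, nor is it stated that a replicate number names the same mouse in both regions. Values are linear intensities from dChip, a program that estimates 1 expression value from all probes of a set. The files name genes only for probe sets that the authors put on a short list for hippocampus or for cerebellum, and 486 distinct genes could be named here.

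Ercc1 pairs with Xpf to form a nuclease that cuts DNA beside bulky lesions and crosslinks between strands. Mice without it age early and die young, with neurological signs. The title of the series points to cholesterol synthesis in the forebrain. Brain cholesterol is made locally because plasma lipoproteins do not cross the blood-brain barrier, and oligodendrocytes building myelin and astrocytes supplying neurons use most of it. Its enzymes are switched together by the transcription factor SREBP2, which is held inactive by Insig proteins when sterols are plentiful.

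No probe set passed an adjusted p of 0.05 in the limma fit of KO against WT (limma's moderated test on log2(intensity + 32), Benjamini-Hochberg over all 45037 probe sets). The calls were 0 higher and 0 lower, and the smallest adjusted p was 0.188. An unadjusted p under 0.05 was reached by 1433 probe sets (3.18%). Of these there were 599 probe sets higher in KO (1.33%) and 834 lower (1.85%), a balance that turned to 1376 higher and 928 lower without KO array 2. The p-values reflect only the variation among these 6 arrays, which may be partly technical. The values of all 3 KO arrays lay above those of all 3 WT arrays for 1747 probe sets (3.88%) and below them for 1977 (4.39%). The log2 change was above 0 for 51.2% of probe sets. The median over all probe sets was 0.003, with 5th and 95th percentiles of -0.205 and 0.197. All genes named below are described against those percentages, and none was called by the adjusted test.

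On 8 unnamed probe sets, WT arrays 1 and 3 stood apart from the other 4 hippocampus arrays by over 2 log2 units. The same 8 set cerebellum WT arrays 1 and 3 apart from the other 4 cerebellum arrays. No other pair of array numbers was set apart on any probe set in both regions. Probe set 1426438_at read 8.7, 8.4 and 5.4 on the KO hippocampus arrays, against 2375, 15.1 and 1634 on WT arrays 1, 2 and 3. Probe set 1436936_s_at read 2348, 1909 and 1925 on the KO arrays, against 111, 1937 and 72.3 on the WT arrays. The files give these probe sets no gene. WT array 2 thus sat with the KO arrays on them, in both regions. The difference between WT arrays 1 and 3 and the other mice goes partly with genotype. The labels give no sex for any mouse, and whether these mice differed in sex was not tested; a trait that WT arrays 1 and 3 share cannot be told apart from genotype in any KO against WT value below. The change of KO against WT array 2 alone is given beside most gene groups. Separately, the leading pattern of variation within the groups held 65.3% of the residual variance, with WT array 1 at one end and KO array 2 and WT array 3 at the other.

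**Figure D1:**
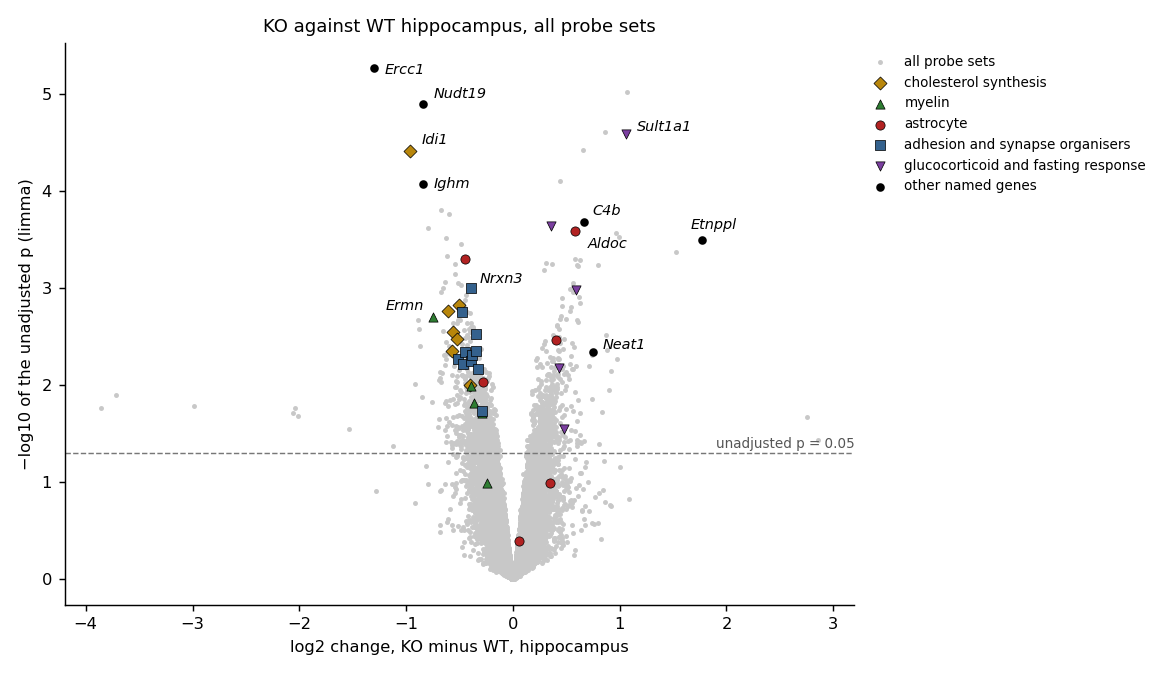
Each point is a probe set, placed by its log2 change (KO minus WT, hippocampus) and the −log10 of its unadjusted limma p, with members of 5 gene groups and 6 further genes marked. Cholesterol synthesis, myelin and adhesion genes lie left of 0 and the glucocorticoid and fasting genes right of it. The grey points farthest from 0 include unnamed probe sets on which WT arrays 1 and 3 stood apart.

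The targeted gene was lower on every KO array. Ercc1 read 49.8, 64.9 and 65.9 on the KO arrays, against 189.8, 223 and 175 on the WT arrays. The lowest WT array was above the highest KO array, and the log2 change was -1.305 ± 0.12 (SE; limma, adjusted p = 0.188). A two-sided exact permutation test gave p = 0.1, the smallest that 3 arrays against 3 allow. No source used here says whether the probe set covers the disrupted sequence. Ercc1 was the only measured member of 16 nucleotide excision and crosslink repair genes, because no other carries a name in the files.

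The genes of cholesterol synthesis were lower in KO hippocampus as a group. Of the 22 genes on the list, 8 could be named, and all 8 were lower on each KO array than on each WT array, with a median log2 change of -0.54 against 0.003 over all probe sets. All 8 also had an unadjusted p under 0.05. The authors had put every one of them on their hippocampus list, which was drawn from these same arrays, so the count describes a selection and is no independent evidence of direction. Against WT array 2 alone, the median was -0.66. In cerebellum the median of the same 8 genes was -0.21, with 7 lower and 1 higher.

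The promoters of Idi1, the member with the largest change, of Hmgcs1, and of Insig1, which holds SREBP in check, are shown from 250 bases before to 50 after the gene start (RefSeq, build GRCm38.p6). Capitals mark CCAAT, the site of the SREBP partner NF-Y, and TCACNCCAC or its shorter form CACNCCAC, sterol response elements, on either strand.
Idi1, chr13:8885356-8885655, plus strand: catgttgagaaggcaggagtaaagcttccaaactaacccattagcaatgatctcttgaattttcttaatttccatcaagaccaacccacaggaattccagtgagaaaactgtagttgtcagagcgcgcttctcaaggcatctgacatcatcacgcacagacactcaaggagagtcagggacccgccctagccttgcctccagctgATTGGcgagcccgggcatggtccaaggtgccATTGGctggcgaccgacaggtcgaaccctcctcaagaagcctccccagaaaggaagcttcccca
Hmgcs1, chr13:119690101-119690400, plus strand: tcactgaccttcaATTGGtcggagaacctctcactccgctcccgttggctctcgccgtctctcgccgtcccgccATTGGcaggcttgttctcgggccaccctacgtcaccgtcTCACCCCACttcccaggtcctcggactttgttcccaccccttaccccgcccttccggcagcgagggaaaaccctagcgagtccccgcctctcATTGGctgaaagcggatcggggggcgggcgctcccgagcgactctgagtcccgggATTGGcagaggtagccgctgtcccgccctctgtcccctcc
Insig1, chr5:28071162-28071461, plus strand: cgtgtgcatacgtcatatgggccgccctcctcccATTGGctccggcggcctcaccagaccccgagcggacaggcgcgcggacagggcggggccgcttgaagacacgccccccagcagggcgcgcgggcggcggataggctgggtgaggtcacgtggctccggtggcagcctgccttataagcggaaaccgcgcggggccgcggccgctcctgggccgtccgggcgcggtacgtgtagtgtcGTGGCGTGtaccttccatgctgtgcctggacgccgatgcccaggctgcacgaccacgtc

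Of the 8 measured cholesterol genes, 5 had a promoter in the RefSeq table. TCACNCCAC was found in 1 of them, Hmgcs1, at 137 bases before the start, and the CACNCCAC found there is the same site. CCAAT was found in all 5. Over all 32851 promoters of that length, TCACNCCAC was in 1.24%, CACNCCAC in 6.24% and CCAAT in 37.4%. The sterol sensing list was searched after the first results were seen, and 3 of its 4 measured members had a promoter. Of these, Insig1 held CACNCCAC 9 bases before the start and CCAAT, Mylip held CCAAT and no sterol element, and Abca1 held none of the motifs. A match is a description of the letters and not a measured site.

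Hmgcs1, which makes HMG-CoA from acetyl units, read 4729, 3940.3 and 5237 on the KO arrays, against 7464, 7241 and 5782 on the WT arrays (log2 change -0.56 ± 0.13). The groups did not overlap, although WT array 3 came near KO array 3. A second Hmgcs1 probe set gave -0.43 ± 0.10.

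Idi1, which isomerises the activated isoprene unit, read 499, 574 and 562 on the KO arrays, against 1195, 1129 and 954 on the WT arrays. The lowest WT array was well above the highest KO array. Its log2 change of -0.96 ± 0.12 corresponds to a WT mean 2.01 times the KO mean (limma, adjusted p = 0.246).

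Fdft1, squalene synthase and the first enzyme committed to sterols, read 1533, 1379 and 1615 on the KO arrays, against 2411, 2064 and 1991 on the WT arrays (log2 change -0.50 ± 0.11). Its second probe set gave -0.43 ± 0.11. Neither showed an overlap of KO and WT, and both are on the authors' hippocampus list.

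Cyp51, Msmo1 and Nsdhl remove the extra methyl groups of lanosterol in sequence. Cyp51 read 1179, 1166 and 1491 on the KO arrays, against 1831, 2256 and 1819 on the WT arrays (log2 change -0.61 ± 0.13). Msmo1 read 1888, 1935 and 2489.5 on the KO arrays, against 2785, 3346 and 2933 on the WT arrays (log2 change -0.52 ± 0.13). Nsdhl read 762, 649.9 and 958 on the KO arrays, against 1101, 1280.1 and 1152 on the WT arrays (log2 change -0.57 ± 0.15). In these 3 demethylation genes KO array 3 was the highest of the KO arrays and WT array 2 the highest of the WT arrays, with no overlap. Stard4, a carrier of sterols through the cytosol, read 293, 259 and 306 on the KO arrays, against 359.8, 443 and 367 on the WT arrays (log2 change -0.41 ± 0.12).

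**Figure D2:**
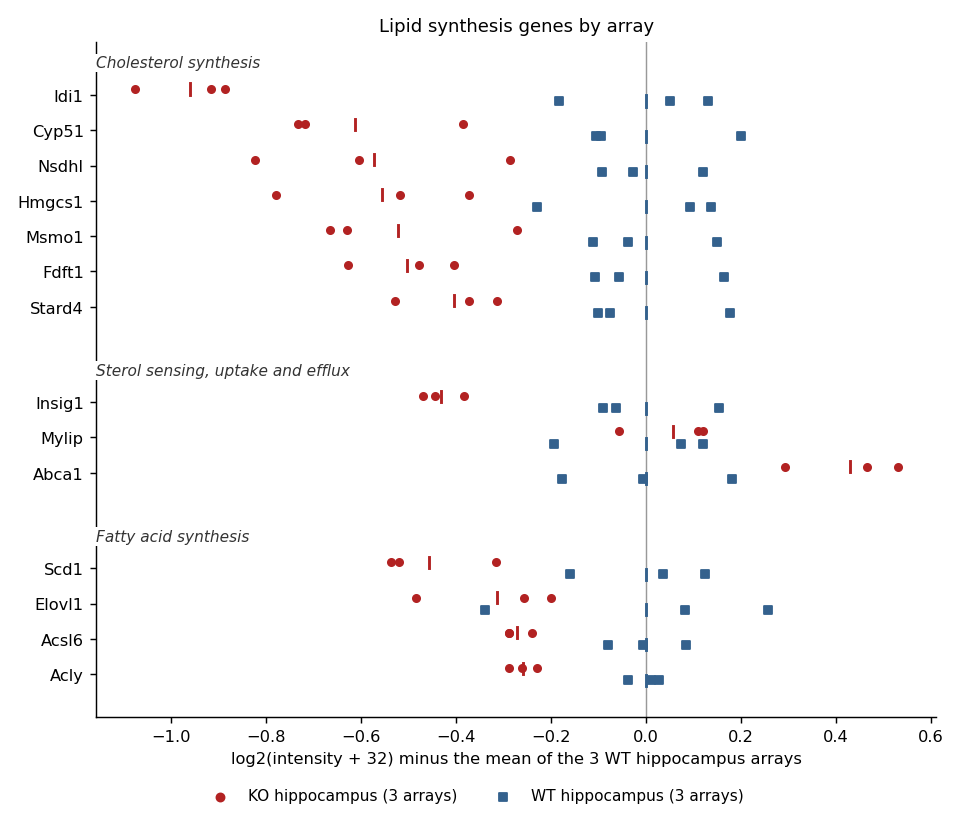
Each row is a gene, with log2(intensity + 32) of each array relative to the mean of the WT arrays; red circles are the KO arrays, blue squares the WT arrays and ticks the group means. The 7 cholesterol genes shown, Insig1, Scd1, Acsl6 and Acly have all KO arrays left of all WT arrays, Abca1 has them right of all WT arrays, and Mylip and Elovl1 overlap.

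Genes that sense and move sterols went in both directions. Of 24 on the list, 4 were measured, 2 lower and 1 higher without overlap, and 1 with overlapping arrays (median log2 change -0.19, and -0.045 against WT array 2 alone). Insig1, itself an SREBP target, read 452, 424 and 432 on the KO arrays, against 669.9, 560.1 and 572 on the WT arrays (log2 change -0.43 ± 0.11). The KO arrays lay close together and below all WT arrays. Abca1, which exports cholesterol from cells, went the other way and read 2209, 1869.9 and 2110.0 on the KO arrays, against 1728, 1514 and 1342 on the WT arrays (log2 change 0.43 ± 0.12). Mylip, a ubiquitin ligase of sterol homeostasis, overlapped, with a log2 change of 0.06 ± 0.12. Abca1 and Mylip are known targets of the sterol-sensing receptors LXR, and Abca1 alone of the pair stood apart between the groups. Insig1 and Abca1 are on the authors' hippocampus list, where every probe set is without overlap, and Mylip is on the cerebellum list only. The contrast between Abca1 and Mylip was thus largely fixed by how each was named.

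The fatty acid genes that could be named, 4 of 23, were all lower (median log2 change -0.29, and -0.39 against WT array 2 alone), 3 of them without overlap. Those 3 are on the authors' hippocampus list, where every probe set is without overlap, so that count restates the selection. Scd1, which puts the first double bond into fatty acids, read 1734, 1756 and 2028 on the KO arrays, against 2259.9, 2597 and 2761 on the WT arrays (log2 change -0.46 ± 0.11). Acly, which frees cytosolic acetyl-CoA for both lipid pathways, read 1673, 1743 and 1704 on the KO arrays, against 2065, 2088 and 1995 on the WT arrays (log2 change -0.26 ± 0.08). KO and WT were well separated in both genes. Acsl6, which activates long-chain fatty acids in brain, had a log2 change of -0.27 ± 0.10. Elovl1, which extends very long chains, had one of -0.31 ± 0.16 with overlapping arrays. In cerebellum the median of these 4 was 0.23, with 3 higher.

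Myelin genes were also lower in KO hippocampus. Of 24 oligodendrocyte and myelin markers, 5 could be named and all 5 were lower, 4 without overlap, with a median log2 change of -0.36. The 3 that were only on the cerebellum list, Ermn, Mal and Mobp, were picked on cerebellar values, and their log2 changes ran from -0.75 to -0.25. Their median of -0.36 is that of all 5 because Mal is the middle gene of both sets. Gpr37 and Mbp are on the authors' hippocampus list, where every probe set is without overlap. WT array 3 was the lowest WT array for each of those 3 genes, and against WT array 2 alone the median of all 5 was -0.515. Because a whole region was measured, fewer cells of a type and less RNA per cell cannot be told apart, here or for any other cell type marker.

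Ermn, a cytoskeletal protein of late myelinating oligodendrocytes, read 977, 819.6 and 966 on the KO arrays, against 1770.3, 1802 and 1199 on the WT arrays. WT array 3 lay nearer to the KO arrays than to the other WT arrays, without reaching them. The log2 change was -0.75 ± 0.17 (limma, adjusted p = 1).

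Mal, a raft protein of compact myelin, read 5261, 5419.7 and 5084 on the KO arrays, against 6960.0, 7931 and 5616 on the WT arrays (log2 change -0.36 ± 0.12). A second Mal probe set gave -0.55 ± 0.15. Mobp, a basic protein of compact myelin, read 5096, 5570.2 and 5502 on the KO arrays, against 7071, 7286 and 5077 on the WT arrays (log2 change -0.25 ± 0.13). For Mobp, WT array 3 was the lowest of all 6 arrays, so the groups overlapped.

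Gpr37, a receptor of maturing oligodendrocytes, read 657, 822 and 679 on the KO arrays, against 899.8, 1037 and 922 on the WT arrays (log2 change -0.39 ± 0.12). The named Mbp probe set, for a main protein of compact myelin, was dim at 272, 302 and 292 on the KO arrays, against 356, 346 and 379.9 on the WT arrays (log2 change -0.29 ± 0.10). KO lay below WT in both genes without overlap.

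Of 20 astrocyte markers, 6 could be named, with 4 higher, 2 lower and a median log2 change of 0.20, and 0.18 against WT array 2 alone. Of the 6, 4 were on the authors' hippocampus list. Aldoc, the aldolase of astrocytes, read 2151, 2187 and 2026 on the KO arrays, against 1289.7, 1536 and 1389.8 on the WT arrays (log2 change 0.59 ± 0.09). Gjb6, the astrocyte gap junction protein connexin, read 1736, 1909.6 and 2012 on the KO arrays, against 1302, 1508 and 1443 on the WT arrays (log2 change 0.40 ± 0.10). All KO arrays were above all WT arrays in both.

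Both lower members are membrane proteins. Aqp4, the water channel of astrocyte endfeet, read 3156, 3041 and 3504 on the KO arrays, against 4314, 4608 and 4329.8 on the WT arrays (log2 change -0.45 ± 0.08). Slc4a4, a sodium bicarbonate cotransporter, read 2290.0, 2246 and 2301 on the KO arrays, against 2644, 3004 and 2676 on the WT arrays (log2 change -0.28 ± 0.08). The second probe set of Aqp4 and both others of Slc4a4 were lower as well, between -0.64 and -0.30. Glul, glutamine synthetase, overlapped at 0.06 ± 0.07.

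Gfap, the intermediate filament protein that marks reactive astrocytes, was measured by 3 named probe sets that differed in size of change. Probe set 1440142_s_at read 955, 902 and 1011 on the KO arrays, against 461, 392 and 465 on the WT arrays (log2 change 1.07 ± 0.11, limma, adjusted p = 0.188). Probe set 1426508_at read 3058, 2829 and 3203 on the KO arrays, against 1889, 1886 and 1942 on the WT arrays (log2 change 0.66 ± 0.08). The brightest, 1426509_s_at, read 3236, 2452 and 3455 on the KO arrays, against 3101, 2088 and 2056 on the WT arrays (log2 change 0.34 ± 0.19). WT array 1 lay within the KO range on the brightest probe set only, and the other probe sets showed no overlap. Those others are on the authors' hippocampus list, where every probe set is without overlap, and the brightest is on the cerebellum list only. The contrast in overlap was thus largely fixed by how each was named.

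The largest named change of all belonged to Etnppl, an astrocyte lyase that breaks down phosphoethanolamine. It read 981, 857 and 615 on the KO arrays, against 207, 341 and 133 on the WT arrays. KO array 3 was the lowest KO value and still stood well above the highest WT value. The KO mean was 3.60 times the WT mean (log2 change 1.77 ± 0.29, limma, adjusted p = 0.746), and against WT array 2 alone the log2 change was 1.16.

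**Figure D3:**
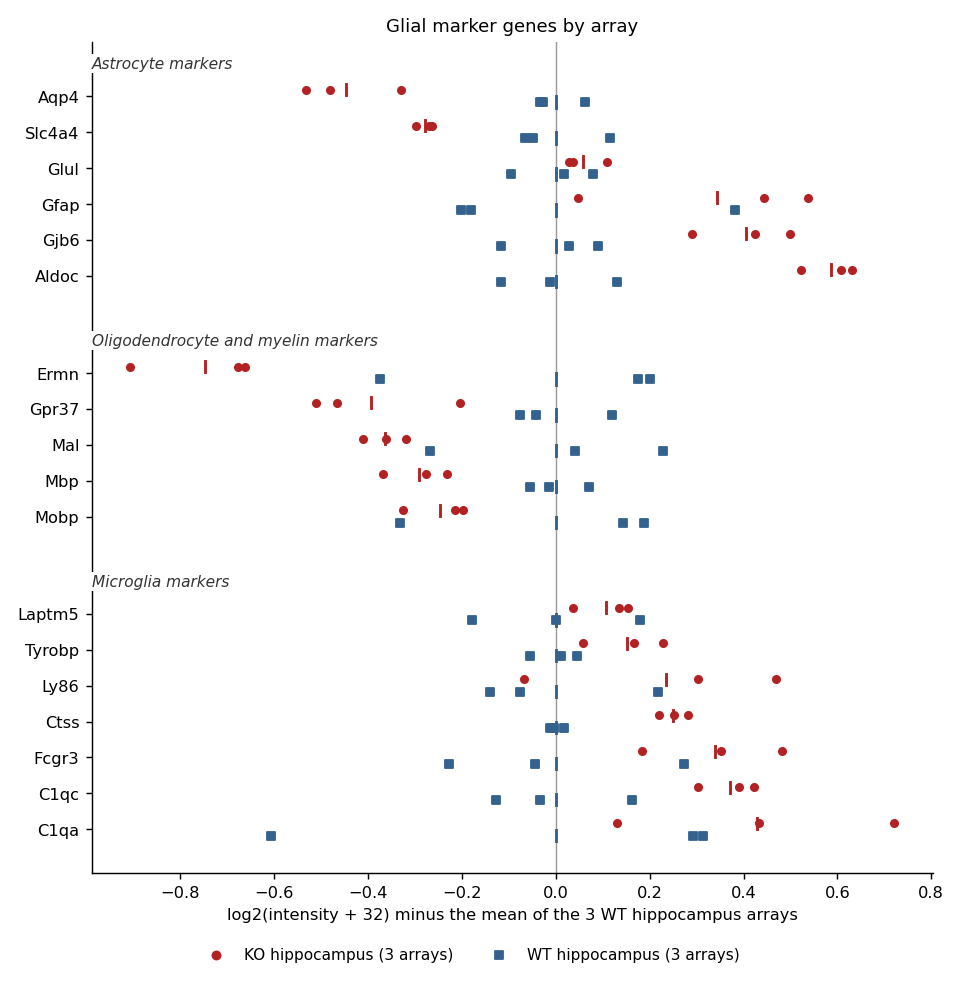
Each row is a named glial marker gene, by its brightest named probe set, with log2(intensity + 32) of each array relative to the mean of the WT arrays; red circles are KO, blue squares WT and ticks group means. Myelin genes lie left of the WT mean with WT array 3 nearest for Ermn, Mal and Mobp, microglial genes lie slightly right of it, and astrocyte genes fall on both sides.

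Microglial genes showed small differences that mostly overlapped. Of 23 markers, 9 could be named, 8 of them from the cerebellum list only. Higher values in KO were seen for 8 of 9, without overlap for 3, 2 of them at an unadjusted p under 0.05, and the median log2 change was 0.235, or 0.114 against WT array 2 alone. Ctss, the microglial protease cathepsin S, read 3552, 3401 and 3477 on the KO arrays, against 2890.2, 2954 and 2908 on the WT arrays (log2 change 0.25 ± 0.07). Tyrobp, the adaptor of microglial receptors, had a log2 change of 0.15 ± 0.10. C1qa, a chain of the first complement component, read 1018, 1551 and 1265 on the KO arrays, against 599, 1161 and 1143 on the WT arrays. KO array 1 lay below WT arrays 2 and 3 there, and the change of 0.43 ± 0.26 was within the spread between arrays. Fcgr3, an antibody receptor, overlapped as well, at 0.34 ± 0.15.

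Of 11 complement genes, 5 could be named, 4 higher and 3 of these without overlap. Among the 3, C4b and C1qc are on the authors' hippocampus list, where every probe set is without overlap. C4b, a central component of the classical pathway, read 1019.6, 903 and 963 on the KO arrays, against 578, 649.6 and 561 on the WT arrays (log2 change 0.66 ± 0.10, limma, adjusted p = 0.746). C1qc, the third chain of the first component, read 1289, 1211 and 1318 on the KO arrays, against 953, 1096 and 890.1 on the WT arrays (log2 change 0.37 ± 0.10). Serping1, the inhibitor of the first component, had a log2 change of 0.37 ± 0.14 with KO array 1, at 306, next to WT array 1, at 304. Over the 5 measured complement genes the median was 0.37, and 0.21 against WT array 2 alone.

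The class I antigen presentation genes H2-K1 and B2m were higher on every KO array, with log2 changes of 0.32 ± 0.11 and 0.28 ± 0.09. Against WT array 2 alone, they were 0.21 and 0.16. Both genes are on the authors' hippocampus list, where every probe set is without overlap. Ighm, the constant region of the mu heavy chain, stood on the other side. It read 137, 142 and 168 on the KO arrays, against 279, 277 and 320.5 on the WT arrays (log2 change -0.84 ± 0.12, limma, adjusted p = 0.422). The groups were far apart, while the 3 arrays of each lay close together. No other immunoglobulin gene that was looked for carries a name in the files, and the source of this signal was not examined.

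The few genes responding to glucocorticoids or fasting that carry a name were higher in KO hippocampus. All 5 that could be named of 27 were higher, 4 without overlap, with a median log2 change of 0.48, and 0.56 against WT array 2 alone. Those 4 are on the authors' hippocampus list, where every probe set is without overlap, so that count restates the selection. Sult1a1, a phenol sulfotransferase, read 608, 703 and 592 on the KO arrays, against 251, 309 and 306 on the WT arrays. The KO mean was 2.20 times the WT mean without overlap (log2 change 1.06 ± 0.12, limma, adjusted p = 0.233).

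Fam107a, an actin-binding protein induced by stress hormones, was among the brightest genes named and read 9830.1, 9834 and 9597 on the KO arrays, against 7956, 7356 and 7496 on the WT arrays (log2 change 0.36 ± 0.06). Its second probe set gave 0.45 ± 0.06. Igfbp3, which binds insulin-like growth factors, read 532, 579.6 and 456 on the KO arrays, against 315, 343 and 347 on the WT arrays (log2 change 0.59 ± 0.12). KO stood clear of WT in both genes. Angptl4, a fasting-induced inhibitor of lipoprotein lipase, had a log2 change of 0.43 ± 0.12. Mertk, a phagocytic receptor, overlapped at 0.48 ± 0.18.

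Detoxification and lysosomal genes, mostly named through the cerebellum list, were slightly higher. Of 29 metallothionein, antioxidant and detoxification genes, 9 were measured and 8 were higher, 6 without overlap (median log2 change 0.20). Apart from Sult1a1, the separated members included Nqo1, a quinone reductase, at 0.35 ± 0.11 and Cyp2d22, a cytochrome P450, at 0.33 ± 0.09. These 3 are on the authors' hippocampus list, so their separation restates the selection. The 6 on the cerebellum list only had a median of 0.14. Gstm5, a glutathione transferase, and Gpx3, a secreted glutathione peroxidase, overlapped at 0.16 ± 0.08 and -0.04 ± 0.15. The metallothioneins Mt1 and Mt2, which bind zinc and copper, were at 0.20 ± 0.07 and 0.205 ± 0.06. All 7 measured lysosomal genes of 21 had a value above 0, with a median of 0.21 and 4 without overlap. Among them only Ctsc was on the hippocampus list, at 0.34 ± 0.11. The fucosidases Fuca1 and Fuca2 were at 0.23 ± 0.09 and 0.21 ± 0.10, without overlap. Cst3, the inhibitor cystatin C, and Lamp2, a lysosomal membrane protein, overlapped at 0.02 ± 0.07 and 0.12 ± 0.14. Against WT array 2 alone the medians were 0.21 for the detoxification genes and 0.15 for the lysosomal genes.

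A group of 12 cell adhesion and synapse organiser genes, gathered after their values were seen, held 12 members lower without overlap, and its median log2 change was -0.39, with -0.40 against WT array 2 alone. All 12 are on the authors' hippocampus list, so the direction was fixed by the choice. Nrxn3, a presynaptic organiser that binds partners across the cleft, read 2198, 2109.8 and 2045 on the KO arrays, against 2779.8, 2923 and 2675 on the WT arrays (log2 change -0.39 ± 0.08). A second Nrxn3 probe set, 1438193_at, had a larger change of -0.68 ± 0.10 (limma, adjusted p = 0.705).

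Cadm2, a synaptic adhesion molecule, was lower on 3 probe sets, with log2 changes of -0.48 ± 0.10, -0.59 ± 0.15 and -0.47 ± 0.10. All 3 are on the authors' hippocampus list. Il1rapl1, a postsynaptic partner of presynaptic phosphatases, read 397, 345 and 309 on the KO arrays, against 574, 527 and 443 on the WT arrays (log2 change -0.51 ± 0.14). Tenm2, a teneurin that pairs with latrophilins, read 624, 658 and 561 on the KO arrays, against 861, 759 and 830.0 on the WT arrays (log2 change -0.39 ± 0.10). Its latrophilin partner Adgrl3 was at -0.38 ± 0.10. The lowest WT array exceeded the highest KO array for each of them.

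Ion channel subunits, also gathered after their values were seen, were lower for 8 of 12, of which 7 did not overlap. The median log2 change was -0.305, and -0.245 against WT array 2 alone. Of the 12, 8 are on the authors' hippocampus list, so the count without overlap was largely fixed by the choice. The 4 on the cerebellum list only had a median of 0.09. Kcnc1, the channel of fast-spiking cells, read 1231, 1111 and 1227 on the KO arrays, against 1535, 1563 and 1541 on the WT arrays (log2 change -0.37 ± 0.09). The WT arrays of Kcnc1 were nearly equal and all above KO.

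Kcna1 and Kcnd2, axonal and dendritic potassium channels, were at -0.37 ± 0.09 and -0.35 ± 0.10. Cacna1a, the pore of the P/Q calcium channel that drives release, was at -0.43 ± 0.12, and its auxiliary subunit gene Cacna2d1 at -0.26 ± 0.08. Fxyd6, a regulator of the sodium pump, was the only member of that group higher without overlap, at 0.36 ± 0.12. On the list of 50 neuronal excitability and synapse genes, 7 could be named, 6 lower and 5 of these without overlap (median -0.27, and -0.30 against WT array 2 alone). Of the 7, 6 are on the authors' hippocampus list, so the count without overlap was largely fixed by the choice.

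Of 7 presynaptic genes gathered after their values were seen, 4 were lower and 3 higher (median -0.35, and -0.16 against WT array 2 alone). Syt2, a fast calcium sensor, read 161, 174 and 171 on the KO arrays, against 248, 272 and 243 on the WT arrays (log2 change -0.51 ± 0.10). Rph3a, a vesicle protein that binds Rab3, read 359, 420.3 and 401 on the KO arrays, against 546, 622 and 547 on the WT arrays (log2 change -0.51 ± 0.11). The brightest Pclo probe set, for an active zone scaffold, was on the cerebellum list only and read 1868, 1877 and 1878 on the KO arrays, against 2891, 2078 and 2555 on the WT arrays (log2 change -0.40 ± 0.12). The KO arrays of Pclo were almost equal and the WT arrays were spread. Against WT array 2 alone its log2 change was -0.15.

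**Figure D4:**
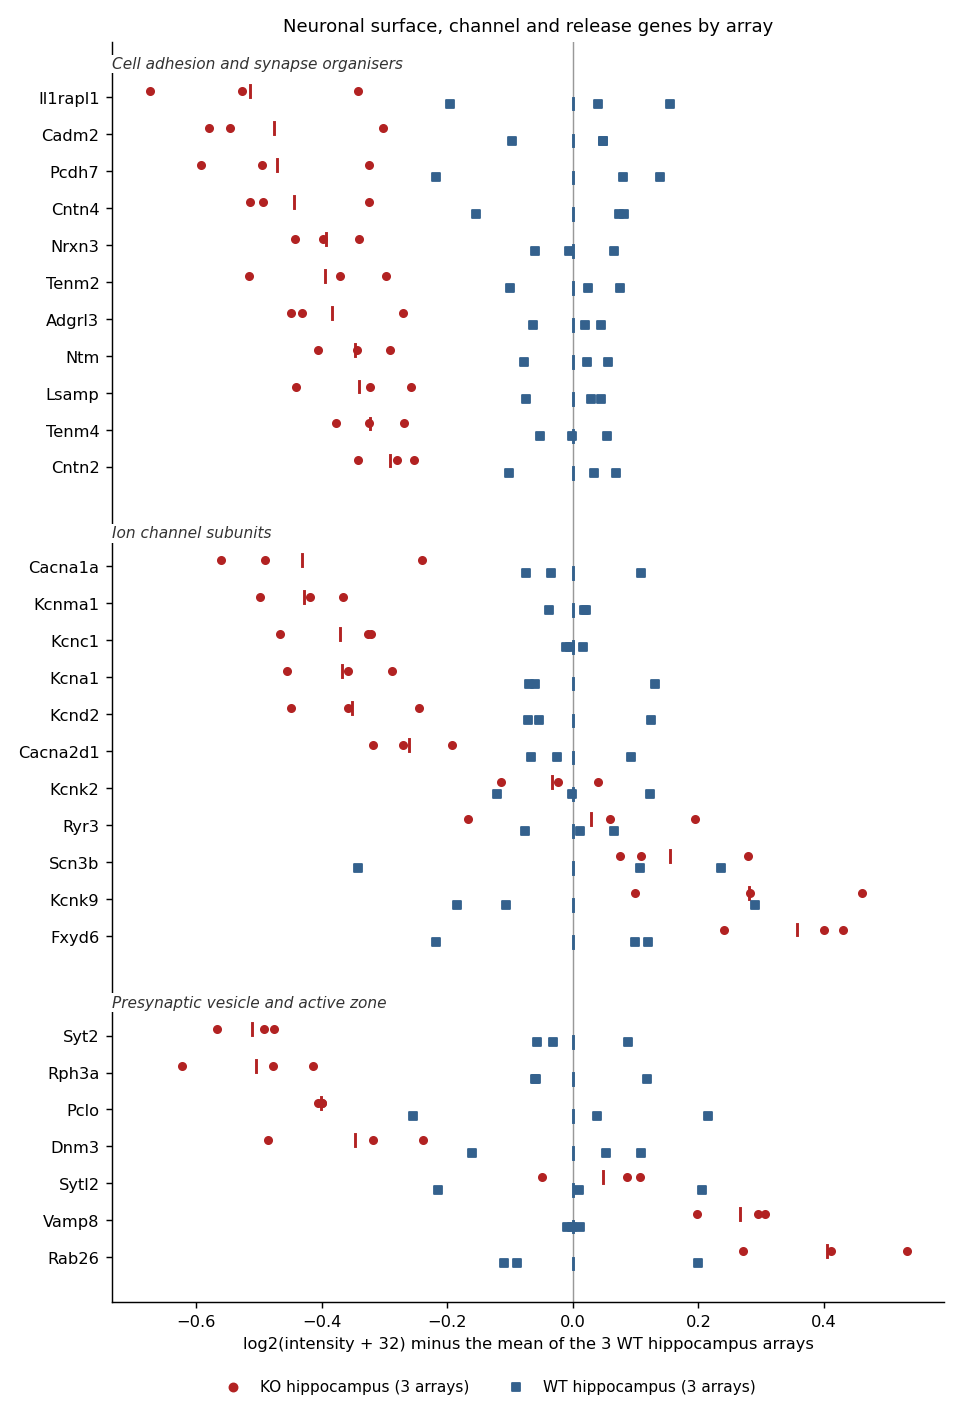
Each row is a neuronal gene, by its brightest named probe set, with log2(intensity + 32) of each array relative to the mean of the WT arrays; red circles are KO, blue squares WT and ticks group means. All adhesion genes shown and most channel genes have the KO arrays left of the WT arrays, and Fxyd6, Vamp8 and Rab26 have them to the right.

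Some neuronal genes were higher. Vip, a peptide of a class of interneurons, read 1563, 1538 and 1522 on the KO arrays, against 1224, 1095 and 1235 on the WT arrays (log2 change 0.37 ± 0.09). Cort, a peptide related to somatostatin, read 649, 688 and 675 on the KO arrays, against 391, 461 and 482 on the WT arrays (log2 change 0.56 ± 0.11). Neurod1, a transcription factor of newborn granule neurons, read 1651, 1753 and 1571 on the KO arrays, against 1168, 1195 and 1346 on the WT arrays (log2 change 0.42 ± 0.10). None of these 3 genes overlapped between KO and WT. All 3 are on the authors' hippocampus list, where every probe set is without overlap, so their separation restates the selection. Over 5 neuropeptide genes gathered after their values were seen, 3 were higher and 2 lower. Their median log2 change was 0.08, and 0.04 against WT array 2 alone.

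Among the 34 genes of developing neurons, 6 were measured, 2 higher and 4 lower (median -0.02, and -0.06 against WT array 2 alone). Besides Neurod1, only Ccnd1, a cyclin that drives cells into the cycle, was separated, at 691, 499.8 and 540.4 on the KO arrays, against 721, 874 and 918 on the WT arrays (log2 change -0.52 ± 0.15). KO array 1 came close to WT array 1. Both separated genes are on the authors' hippocampus list, and the other measured ones are on the cerebellum list only. The neuronal adhesion molecule Ncam1 and the surface glycoprotein Cd24a overlapped at -0.28 ± 0.15 and 0.16 ± 0.13. Dpysl3 and Nnat, also of developing neurons, were at -0.02 ± 0.13 and -0.02 ± 0.12, and Cck, a neuropeptide, at -0.07 ± 0.10, all with overlapping arrays.

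Genes linked to DNA damage and cell death were few among the named ones. Trp53inp1, a p53 target that promotes death, read 773, 833 and 817 on the KO arrays, against 622, 615 and 645 on the WT arrays (log2 change 0.35 ± 0.09). Phlda3, a p53-induced inhibitor of Akt, read 752, 743 and 829 on the KO arrays, against 975, 1053 and 837 on the WT arrays (log2 change -0.29 ± 0.11). The groups did not overlap in either gene, and the directions were opposite. The median of the pair was 0.03, and -0.03 against WT array 2 alone. Hrk, a BH3 protein of neurons, read 1312, 1556 and 1213 on the KO arrays, against 699.7, 990.3 and 1007 on the WT arrays (log2 change 0.59 ± 0.16). Bid, another BH3 protein, was at 0.25 ± 0.10. Hrk and Bid were gathered after their values were seen. Trp53inp1, Hrk and Bid are on the authors' hippocampus list, where every probe set is without overlap, so their separation restates the selection. Phlda3 is on the cerebellum list only.

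A set of 5 genes induced by low oxygen was gathered after their values were seen. It was higher for all 5 and without overlap for 4 (median 0.37, and 0.41 against WT array 2 alone). Those 4 are on the authors' hippocampus list, where every probe set is without overlap, so that count restates the selection. Hk2, a hexokinase, read 308, 324 and 311 on the KO arrays, against 234, 227 and 254 on the WT arrays (log2 change 0.36 ± 0.10). Kdm3a, a histone demethylase, read 711, 696 and 701 on the KO arrays, against 498, 612 and 507 on the WT arrays (log2 change 0.37 ± 0.11). Ankrd37 was at 0.43 ± 0.10. Bnip3l, a mitophagy receptor named through the cerebellum list, overlapped at 0.09 ± 0.10. Angptl4, described above, is the fifth.

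Several single genes with large changes belong to none of these groups. Nudt19, a peroxisomal hydrolase of coenzyme A, read 669, 696 and 720.3 on the KO arrays, against 1306, 1229.9 and 1286 on the WT arrays (log2 change -0.85 ± 0.09, limma, adjusted p = 0.188). Its second probe set gave -0.60 ± 0.09. Dpy19l1, a C-mannosyltransferase, read 398, 462 and 414 on the KO arrays, against 868, 765 and 658 on the WT arrays (log2 change -0.80 ± 0.13). In both genes the KO arrays were tightly grouped and clear of WT.

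Klf12, a transcriptional repressor, read 721, 846 and 723 on the KO arrays, against 1244, 1208 and 1129 on the WT arrays (log2 change -0.63 ± 0.10). Ptn, the growth factor pleiotrophin, read 2168, 2341 and 2114 on the KO arrays, against 3036, 3289 and 2986 on the WT arrays (log2 change -0.48 ± 0.08). Fut9, which builds the Lewis X sugar, was at -0.88 ± 0.20 on one probe set and -0.32 ± 0.08 on the brighter one. Neat1, the RNA scaffold of paraspeckles, read 456, 305 and 354 on the KO arrays, against 225, 247 and 154 on the WT arrays (log2 change 0.75 ± 0.19). None of them overlapped, and KO array 1 was the highest for Neat1. Among unnamed probe sets, 1426261_s_at read 105.0, 128 and 100.1 on the KO arrays, against 60.7, 71.0 and 67.1 on the WT arrays (log2 change 0.54 ± 0.11). Probe set 1436326_at read 384, 295 and 345 on the KO arrays, against 748, 794 and 469.6 on the WT arrays (log2 change -0.885 ± 0.20).

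Of the 227 hippocampus-list genes, 23 (10.1%) lie on chromosome 7, which carries Ercc1, with 12 higher and 11 lower. Of the 262 genes on the cerebellum list only, 15 (5.73%) lie there. The share of chromosome 7 among all probe sets is not given, because only listed probe sets carry names. Whether either list holds an excess was not tested. Among the hippocampus-list genes, the nearest to Ercc1 by gene order in RefSeq was Eml2, a microtubule-associated protein, with 11 genes between. Genes on the cerebellum list only were not placed in that order. Eml2 read 1269, 1467 and 1019 on the KO arrays, against 627, 635 and 960.0 on the WT arrays (log2 change 0.745 ± 0.19). KO array 3 and WT array 3 were close together, and the other arrays were far apart. Nudt19 and Sult1a1, described above, also lie on chromosome 7, with 740 and 2946 genes between them and Ercc1. Their log2 changes were -0.85 and 1.06. The mice came from strain crosses, and no source used here gives the strain of the interval around Ercc1 in each mouse.

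The imprinted gene Ndn on chromosome 7, which encodes the growth suppressor necdin, was higher on 4 probe sets, by log2 changes of 0.29 to 0.46. All 4 are on the authors' hippocampus list, where every probe set is without overlap, so their separation restates the selection. The brightest Ndn probe set read 7594, 7589.7 and 7615 on the KO arrays, against 6165, 6196 and 6237 on the WT arrays (log2 change 0.29 ± 0.05). The arrays of each group lay close together and the groups far apart. Mkrn3, beside Ndn in the same imprinted cluster, was at 0.49 ± 0.14, and Snhg14, the long RNA of that cluster, at -0.30 ± 0.08. Rian, a maternally expressed RNA of another cluster, read 1103, 1132 and 1082 on the KO arrays, against 1958, 1379 and 1647 on the WT arrays (log2 change -0.56 ± 0.13). Over the 7 imprinted genes gathered after their values were seen, 3 were higher and 4 lower (median -0.02, and -0.12 against WT array 2 alone).

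The probe sets on the cerebellum list only were picked by the authors on cerebellar values, and the 35 that were also on the hippocampus list are left out, so the hippocampal selection shaped this set as well. Of these 332, an unadjusted limma p under 0.05 was found for 19 higher (5.72%, against 1.33% of all probe sets) and 22 lower (6.63%, against 1.85%). No overlap was found for 31 higher (9.34%, against 3.88%) and 24 lower (7.23%, against 4.39%). Besides Ctss, Mt1 and Mt2, the higher ones with the smallest p were Mgst1, a microsomal glutathione transferase, at 0.42 ± 0.12 and Grn, the lysosomal regulator progranulin, at 0.23 ± 0.08. Among the lower ones with the smallest p were Ermn, Rian, Mal and Pclo. On the hippocampus list itself were 278 probe sets, 126 higher and 152 lower, and all 278 were without overlap.

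Markers of other tissues and cell types were measured for a few genes. Alas2, the heme synthesis enzyme of red cells, read 152, 123 and 273 on the KO arrays, against 258, 339 and 274 on the WT arrays. KO array 3 lay inside the WT range. Ly6a, an endothelial surface protein, was higher at 0.28 ± 0.09. The 3 meningeal and matrix genes, Sparc, Fmod and Col1a2, overlapped, at 0.18 ± 0.09, 0.03 ± 0.18 and -0.07 ± 0.27. Of 4 cerebellum markers measured, 3 were higher and 1 lower, with 1 in each direction without overlap. The median was 0.22, and 0.12 against WT array 2 alone. Among the higher ones, Tle6 was at 0.10 ± 0.11 and Gdf10 at 0.34 ± 0.14, and Neurod1 is also a hippocampal gene. None of the markers listed for choroid plexus, thalamus and striatum, oligodendrocyte precursors or pyramidal and granule neurons carries a name in the files. Those lists were not analysed here.

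The effect in hippocampus was compared with that in cerebellum in a single limma fit over all 12 arrays, in which the shared mouse was not modelled. No probe set passed an adjusted p of 0.05 for the difference of effects. At an unadjusted p under 0.05 there were 1272 (2.82%), and the smallest adjusted p of a named gene was 0.0717 for Ctss, whose log2 change was 0.25 in hippocampus and 1.13 in cerebellum. Myelin genes had a median of -0.36 in hippocampus and 0.26 in cerebellum, and 3 of these 5 genes carry a name only through the cerebellum list. Microglial genes had a median of 0.235 in hippocampus and 0.865 in cerebellum, but 8 of these 9 genes carry a name only through the cerebellum list. That choice favours larger cerebellar values, and how much of the gap it makes was not tested.

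Cholesterol genes were at -0.54 in hippocampus and -0.21 in cerebellum, and all 8 were chosen on their hippocampal values. Idi1 had a difference of -0.58 ± 0.16 (limma, unadjusted p = 0.00314, adjusted p = 1). The adhesion genes were at -0.39 in hippocampus and 0.002 in cerebellum, and these too were chosen for low values in hippocampus. That choice favours a gap between the regions, and how much of the gap it makes was not tested. For Ighm the difference was -0.92 ± 0.145 (adjusted p = 0.248 in limma). The log2 change of Sult1a1 was 1.06 in hippocampus and 1.30 in cerebellum, and that of Etnppl 1.77 in hippocampus and 1.55 in cerebellum. Their differences of -0.25 ± 0.21 and 0.22 ± 0.40 had unadjusted limma p-values of 0.27 and 0.591. For 35 probe sets on both lists, 29 were higher in both regions, 4 lower in both and 2 opposite.

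**Figure D5:**
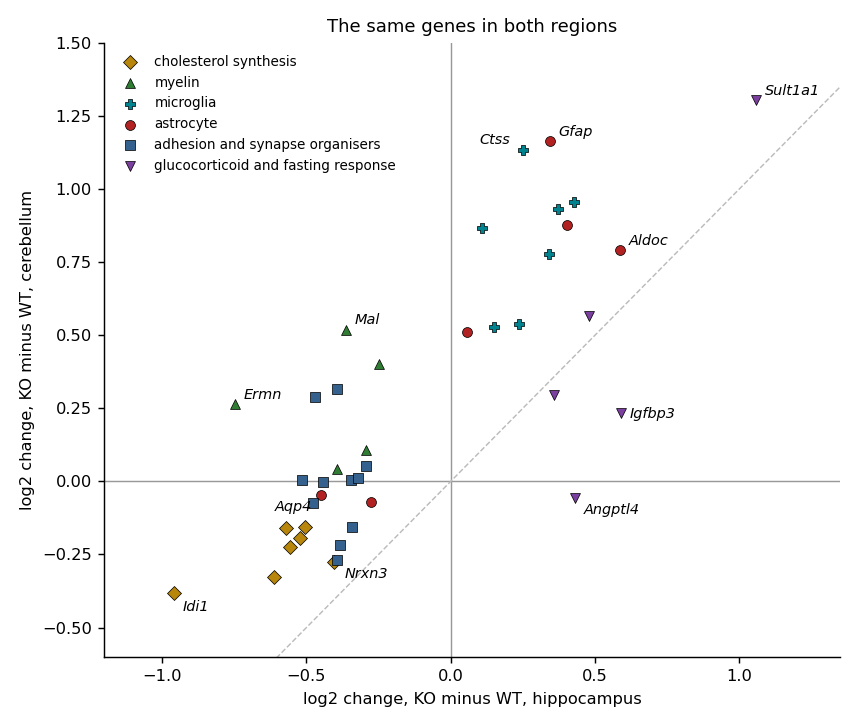
Each point is a gene, placed by its log2 change (KO minus WT) in hippocampus on the horizontal axis and in cerebellum on the vertical axis; the dashed line marks equal values. Myelin genes lie left of 0 and above 0, microglial genes lie above the dashed line, and the adhesion genes spread around 0 on the vertical axis only.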

How the data were processed

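The authors hybridised total RNA to Affymetrix 430_2.0 arrays and analysed them with dChip, per the labels and the design text. The deposited values are linear intensities per probe set, and no source used here states dChip's version, normalization or background settings. The values of the deposited matrix equal those of the hippocampus table. The number of arrays, 3 per group, limits the precision.

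Intensities were used as log2(intensity + 32) with no further normalization. KO and WT hippocampus arrays were compared with limma 3.58.1 (lmFit, eBayes with an intensity trend) in R 4.3.3, with Benjamini-Hochberg adjustment over 45037 probe sets and a threshold of 0.05. The regional difference came from an interaction fit over 12 arrays. The fit was checked on simulated data with known changes. Tables were made in Python 3.11.15 with pandas 2.3.3, the exact test with SciPy 1.17.1 and NumPy 2.4.6, and figures with matplotlib 3.10.9.

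Names came from the gene columns of the authors' 2 short lists. Of 610 listed probe sets, 538 had 1 current symbol in RefSeq, 42 of them through a synonym and 4 through an accession, while 21 had several genes and 51 no current symbol. The brightest named probe set represents a gene. Probe sets of a gene that are on neither list carry no name, so agreement among its named probe sets partly restates the selection. Named in the text were Ercc1; for each direction, the 8 named probe sets of smallest p and the 5 of largest change; the members of each list, or the 6 with the smallest p and 1 against the median where over 8 were measured; 2 unnamed probe sets per direction; and 5 cerebellum-list genes in each direction. Further genes were chosen after their values were seen. Members and lists were chosen with earlier results of these data known. The search of the sterol sensing promoters was added later. Alternatives covered pseudocount, normalization, filter, trend, covariate, block and left-out arrays. Several measured genes, 7 in all, are not reported here by name; counts and medians include them.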

Additional observations from a re-analysis of the deposited data

Results flagged for a closer look

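The genes chosen by the naming rule and those in the groups gathered after their values were seen were searched for KO and WT arrays that did not overlap in either region, with opposite directions. In 7 of these genes KO was lower in hippocampus and higher in cerebellum; other genes on the authors' lists were not searched here. Values are the KO effect in hippocampus minus that in cerebellum, on the log2 scale, from limma. Ermn gave -1.011 (adjusted p = 0.887). The probe sets of Mal gave -0.882 and -1.209 (adjusted p = 0.887 for both). Scd1 gave -0.76 and Pthlh, a peptide related to parathyroid hormone, -0.674 (adjusted p = 0.887 for both). Phlda3 gave -0.727, Tenm2 -0.71 and Cacna1a -0.558 (adjusted p = 1 for each). None passed the adjusted test, and each gene was on an authors' list drawn from 1 of the regions.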

How the results depend on the processing

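The 0 calls in each direction held under the other pseudocounts, quantile normalization, the filter, no trend and the deposited matrix. With the leading residual component as a covariate there were 6 higher and 3 lower, with 3651 probe sets at an unadjusted p under 0.05 against 1433, and Ercc1 at -1.305 (limma adjusted p = 0.00715). That component is built from the residuals of these arrays, so it leaves the log2 changes as they are and lowers the residual variance by construction, and these calls test nothing further. One fit over 12 arrays called 2 higher and 5 lower, with Ercc1 at -1.305 (adjusted p = 0.0422). An unadjusted p under 0.01 with at least a 1.5-fold change was met by 28 higher and 31 lower. Leaving out 1 array gave 0 to 2 higher and 0 to 6 lower, the most without WT array 2, when the calls were the 8 probe sets on which WT arrays 1 and 3 stand apart. Unadjusted counts were 748 without KO array 1, 2304 without KO array 2 and 939 without KO array 3. Their balance depended on single arrays: 599 higher and 834 lower became 1376 and 928 without KO array 2, 831 and 823 without WT array 1, and 402 and 948 without WT array 3. Against WT array 2 alone, a setting added after seeing the data in which its spread is taken from the KO arrays, 3 unnamed probe sets were called lower. The targeted gene Ercc1 lay between -1.371 and -1.221 with 1 array left out.

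Same-numbered KO and WT arrays had residual correlations of 0.579, 0.25 and -0.438, so the numbers were not taken to pair the mice. With the replicate block there were 0 calls in each direction and 1416 at an unadjusted p under 0.05, with Ercc1 at -1.305. For the regional difference the block within each region gave 1 call, and leaving out 1 array gave 0 to 5, with 1 without WT cerebellum array 1 and 5 without WT cerebellum array 2.

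Of 1424 gene values under alternatives, 22 changed sign, all of genes near 0. With 1 array left out, the log2 change ran from -0.151 to 0.01 for Cck, -0.354 to 0.136 for Col1a2, -0.033 to 0.07 for Cst3, -0.144 to 0.049 for Dpysl3 and -0.091 to 0.212 for Fmod. It ran from -0.182 to 0.121 for Gpx3, -0.021 to 0.197 for Lamp2, -0.039 to 0.117 for Mylip and -0.123 to 0.097 for Nnat. Against WT array 2 alone, Cck was at 0.04, Col1a2 at 0.012, Lamp2 at -0.001, Nnat at 0.001 and Tle6 at -0.047. Of 240 list medians, 22 moved beyond the spread and 5 had the opposite sign.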
